A study of Xenopus tropicalis with 4 samples.

Results

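The immediate early transcription factors described here are fos, fosb, fosl1, fosl2, jun, junb, jund, atf3, egr1 and ier2, measured in Xenopus tropicalis animal caps (ACs) at neurula stage NF16. They were chosen by symbol among the 6623 gene identifiers that the study's supplementary tables name, and each of the 10 symbols belongs to 1 identifier of the 34178 in the count files. All 10 are named in the table of the hPHF8 rescue experiment and 9 also in that of the xPHF8ΔC rescue, which list genes by their p in other libraries. None is named in the part of the SUV4-20H table at hand. The set was proposed with its spread in the libraries used here already known, so the spread between replicates and the fold changes below describe the data and support nothing further.

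ACs are explants of the prospective ectoderm, which form epidermis in culture. The H1H2Mo ACs came from embryos injected with translation-blocking morpholinos, antisense oligonucleotides, against suv4-20h1 and suv4-20h2, the enzymes that turn monomethylated lysine 20 of histone H4 into its di- and trimethylated forms. The CoMo ACs came from embryos that received a standard control morpholino. There were 2 libraries per condition, each made from pooled ACs, and the labels give neither a strain nor a clutch, day or batch. The deposited files of H1H2Mo 1 and CoMo 2 carry the same digit in their names, whose meaning the sources used here do not give. All sample titles carry the same dataset tag. The study calls its RNA-seq replicates biological and describes more of them per condition than the 2 libraries used here. It does not say whether the libraries came from separate clutches, so the p-values measure the spread between these libraries.

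Immediate early genes are switched on within minutes of a growth factor, stress or wounding, without new protein synthesis, through MAP kinases that act on factors such as SRF already present in the cell. Their mRNAs are short-lived, so that a level reflects a recent state of the cell. The Fos proteins pair with Jun proteins through leucine zippers to form AP-1, which binds DNA, and Jun proteins can also pair with each other. In epidermis, AP-1 is known for roles in differentiation, stress and wound responses.

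The libraries held 25940076 and 17125387 read pairs on genes for H1H2Mo 1 and 2, and 17054150 and 47407319 for CoMo 1 and 2. Values are given as CPM, the count of a gene scaled to a common library total, with edgeR's TMM factors (0.927 to 1.07). The conditions were compared with the quasi-likelihood test of edgeR, and a gene was called at an adjusted p under 0.05 over the 19372 genes tested, which 16.5% of them passed. The transcript of the morpholino target suv420h1 had 89.3 and 82.4 CPM in H1H2Mo, against 109 and 123 CPM in CoMo. That of the other target, kmt5c, had 147 and 172 CPM, against 47.7 and 58.2 CPM, and was called higher (edgeR adjusted p = 0.0055). Since the morpholinos block translation, neither level checks the knockdown.

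All 10 immediate early factors were tested, and all had the same highest library. Each was highest in H1H2Mo 1 and second highest in CoMo 2, while the lowest level fell in CoMo 1 for 7 factors and in H1H2Mo 2 for 3. The 2 conditions thus overlapped for all 10, whereas they did not overlap for 59.5% of the genes tested. Among the 12536 genes that averaged 50 counts or more per library (the better counted genes), which include all 10 factors, H1H2Mo 1 was highest and CoMo 2 second for 7.87%. The order held for all 10 factors with the reads on genes thinned to the smallest library's total. It held for 9 in CPM without TMM scaling and also for 9 under RLE and under upper-quartile normalization. Without TMM scaling ier2 was the exception, at 151 CPM in H1H2Mo 2 and 137 CPM in CoMo 2. The lowest library of fosb also depended on the scaling. Without TMM it was CoMo 1, at 2.23 CPM, against 2.28 CPM in H1H2Mo 2.

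**Figure D1:**
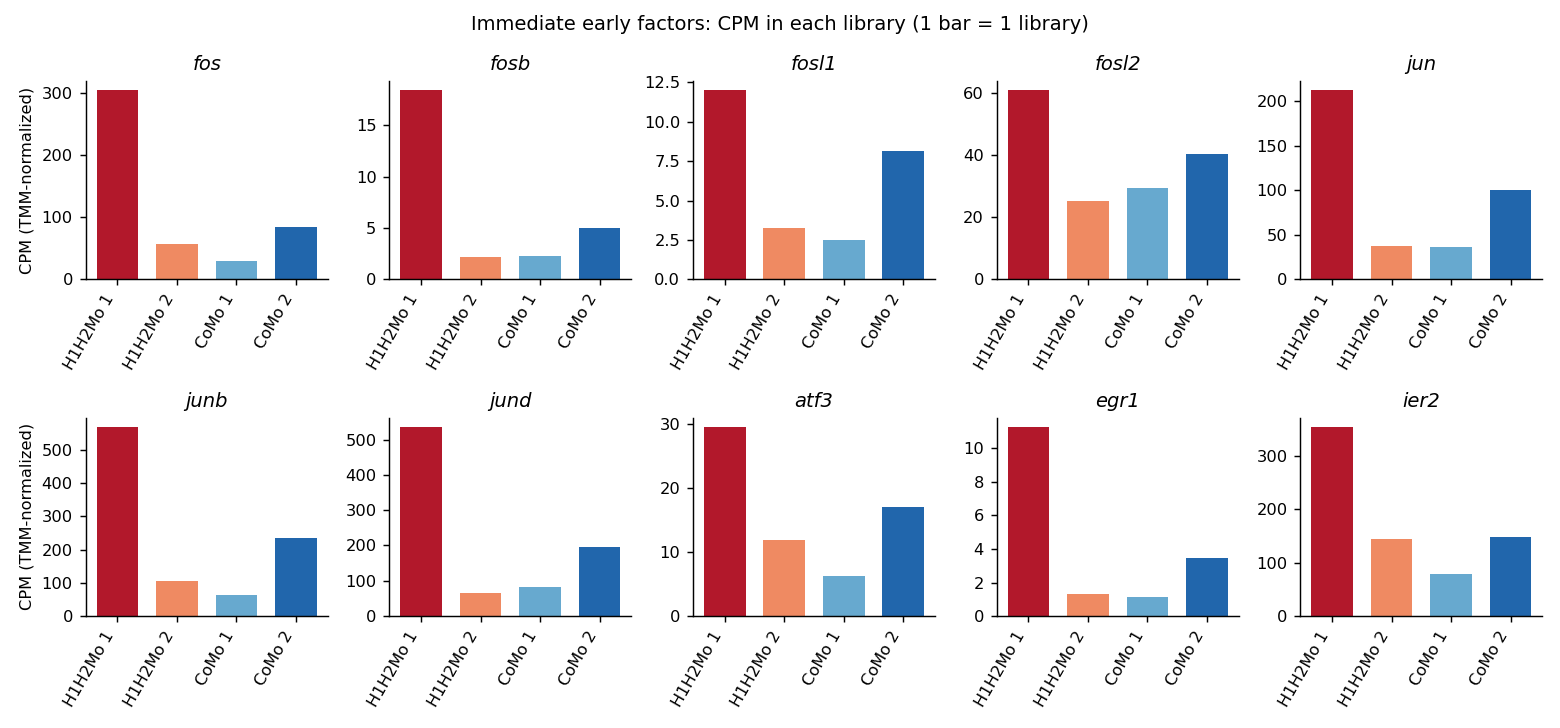
Level of each of the 10 factors in each library, as TMM-normalized CPM (y axis, from 0, with a scale of its own in each panel); 1 bar is 1 library, with H1H2Mo 1 and 2 left of CoMo 1 and 2. In every panel the H1H2Mo 1 bar is the tallest and the CoMo 2 bar is the second, so that the conditions overlap.

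Within the Fos family, fos itself, the classic partner of Jun in AP-1, had 305 and 56.8 CPM in H1H2Mo, against 28.9 and 85.3 CPM in CoMo. H1H2Mo 1 stood 5.36-fold above H1H2Mo 2, and CoMo 2 stood 2.95-fold above CoMo 1. The close relative fosb had 18.4 and 2.18 CPM in H1H2Mo, against 2.32 and 4.99 CPM in CoMo, so that a single library was far above the other 3. These values rest on 511 and 39 reads in H1H2Mo, against 38 and 219 reads in CoMo. The relatives fosl1 and fosl2 (Fra-1 and Fra-2 in mammals) lack the strong activation domain of fos. There were 11.99 and 3.24 CPM of fosl1 in H1H2Mo, against 2.50 and 8.13 CPM in CoMo, and CoMo 2 came closest to H1H2Mo 1 for this gene, with a log2 difference of 0.56 between them. For fosl2 the values were 60.8 and 25.4 CPM in H1H2Mo, against 29.4 and 40.3 CPM in CoMo, the smallest fold between highest and lowest library among the 10 factors. H1H2Mo 2 was the lowest library for fosl2.

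The make-up of the Fos family differed between the libraries as well. The share of fos in the summed CPM of the 4 Fos genes was 77.0% and 64.9% in H1H2Mo, against 45.8% and 61.5% in CoMo. The share of fosl2 was 15.4% and 29.0% in H1H2Mo, against 46.6% and 29.1% in CoMo. These shares are of reads and are not corrected for gene length, so they compare libraries and not genes. The summed level was 396 and 87.6 CPM in H1H2Mo, against 63.1 and 139 CPM in CoMo, and the share of fos was largest in the library with the largest sum, H1H2Mo 1, and smallest in that with the smallest sum, CoMo 1.

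The Jun proteins bind DNA as partners of Fos or of each other. jun had 212 and 37.0 CPM in H1H2Mo, against 36.8 and 99.96 CPM in CoMo, and H1H2Mo 2 and CoMo 1 were nearly level. junb, which in mammals often restrains the activity of jun, had 569 and 106 CPM in H1H2Mo, against 64.6 and 236 CPM in CoMo. It showed the widest gap between the CoMo libraries, at 3.65-fold. jund, in mammals the most steadily expressed of the family, had 535 and 63.9 CPM in H1H2Mo, against 81.8 and 195 CPM in CoMo. Its H1H2Mo libraries differed 8.37-fold, and H1H2Mo 2 lay below both CoMo libraries. The summed CPM of jun, junb and jund was 1316 and 207 in H1H2Mo, against 183 and 531 in CoMo. Of this sum, junb made up 43.2% and 51.2% in H1H2Mo, against 35.3% and 44.4% in CoMo, and jund 40.7% and 30.9% in H1H2Mo, against 44.7% and 36.8% in CoMo. The share of jun was 16.1% and 17.9% in H1H2Mo, against 20.1% and 18.8% in CoMo.

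The last 3 factors belong to other families. atf3, a leucine zipper factor induced by many kinds of stress that can pair with Jun, had 29.5 and 11.8 CPM in H1H2Mo, against 6.28 and 17.03 CPM in CoMo. For atf3 the gap between the CoMo libraries (2.71-fold) was about as wide as that between the H1H2Mo libraries (2.50-fold). egr1, a zinc finger factor that is a target of SRF, had 11.3 and 1.34 CPM in H1H2Mo, against 1.16 and 3.46 CPM in CoMo. It was the factor with the fewest reads, 313 and 24 in H1H2Mo and 19 and 152 in CoMo, and its H1H2Mo libraries differed 8.42-fold. ier2, a nuclear protein of the immediate early response, had 354 and 144 CPM in H1H2Mo, against 78.4 and 148 CPM in CoMo. H1H2Mo 2 and CoMo 2 were close for ier2, with a log2 difference of -0.04.

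The spread between replicates was larger for these factors than for most genes. The log2 ratio of H1H2Mo 1 over H1H2Mo 2 ranged from 1.26 for fosl2 to 3.06 for jund, with a median absolute value of 2.42, against 0.45 for the better counted genes. All 10 factors were at least 2-fold apart in this direction, as were 10.2% of those genes. Between the CoMo libraries the log2 ratio of CoMo 2 over CoMo 1 ranged from 0.45 for fosl2 to 1.87 for junb, with a median absolute value of 1.43, against 0.32. Here 8 of the 10 factors were at least 2-fold apart, as were 4.69% of the genes. Both ratios reached 2-fold for the same 8 factors, all but fosl2 and ier2, and for 1.35% of the genes. As large a ratio between the H1H2Mo libraries, in either direction, was found in 0.59% of the genes for jund and in 9.69% for fosl2. With 2 libraries per condition there is no test of a spread, and these values are a description.

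**Figure D2:**
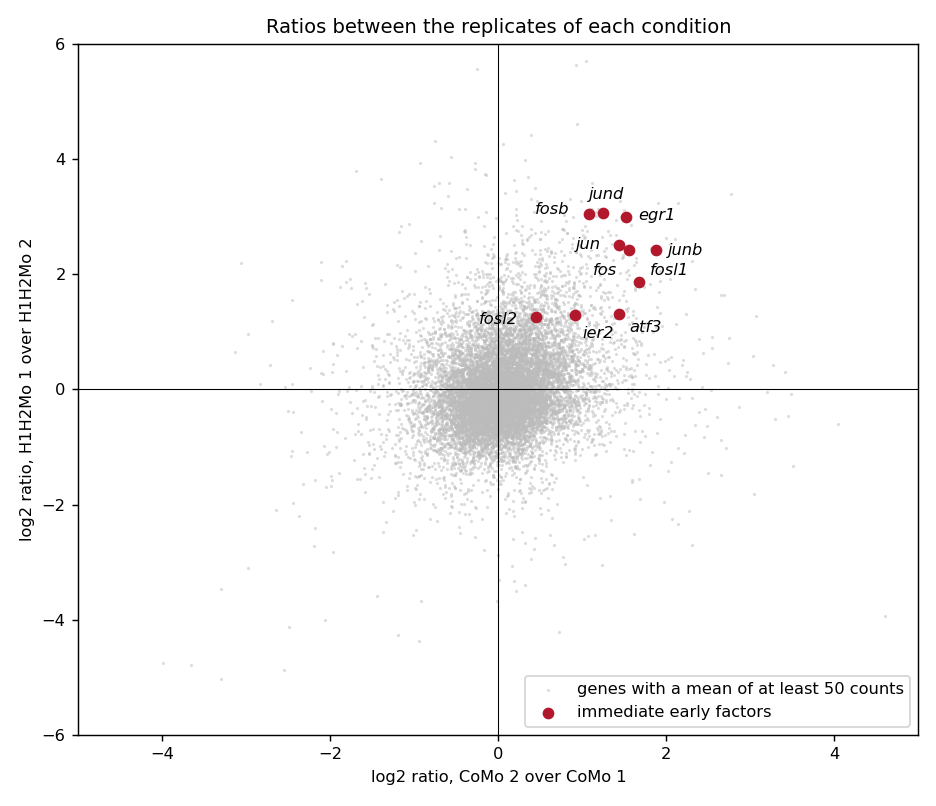
Log2 ratio of H1H2Mo 1 over H1H2Mo 2 (y axis) against that of CoMo 2 over CoMo 1 (x axis), for the 12536 better counted genes, which averaged 50 counts or more (grey) and the 10 factors (red); 9 genes lie outside the axes. All 10 factors lie in the upper right part, from 1.26 to 3.06 on the y axis and from 0.45 to 1.87 on the x axis.

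Measures of the libraries moved with this order in part. H1H2Mo 1 and CoMo 2, where the factors were highest, were also the deepest libraries. After thinning to the smallest total, the median absolute log2 ratio was 2.40 between the H1H2Mo libraries and 1.30 between the CoMo libraries. Some uniquely mapped read pairs were assigned to no gene on the counted strand, which can include pairs in introns or on the opposite strand. Their share was 25.8% in H1H2Mo 1 and 20.2% in H1H2Mo 2, against 18.1% in CoMo 1 and 19.8% in CoMo 2. The part of this share in the spread was not tested. H1H2Mo 1 and CoMo 2 also share the digit in the names of their deposited files. Whether these libraries share a clutch or day is not given, and its part in the spread was not tested.

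Between the conditions, all 10 factors had a positive log2 fold change for H1H2Mo over CoMo, from 0.31 for fosl2 to 1.66 for fos, with a median of 1.13. Over all genes tested the median was 0.05. Benjamini-Hochberg adjusted p-values ranged from 0.10 to 0.67 in edgeR and from 0.058 to 0.67 in DESeq2. Thus 0 of the 10 factors were called by edgeR, where 16.5% of all genes were, and 0 by DESeq2, where 20.1% were. An unadjusted p under 0.05 was reached by 2 factors in edgeR (29.8% of all genes) and by 2 in DESeq2 (29.1%). The set was put together with these values known, so nothing is read from the shares. Without a filter beyond 1 read in all, edgeR gave smaller standard errors, 0.37 for fos, and called 6 factors higher (fos, fosb, junb, jund, egr1 and ier2), where 6.83% of all genes were called higher.

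The largest fold change was that of fos, which averaged 181 ± 175 CPM in H1H2Mo and 57.1 ± 39.9 CPM in CoMo (SD, n = 2 each), a log2 fold change of 1.66 with a standard error of 0.65 (edgeR adjusted p = 0.10). For ier2 it was 1.14 with a standard error of 0.45 (edgeR adjusted p = 0.11), from 249 ± 149 CPM in H1H2Mo and 113 ± 49.1 CPM in CoMo (SD, n = 2 each). These were the 2 factors with an unadjusted edgeR p under 0.05. The log2 fold changes of fosb and egr1 were 1.48 and 1.43, with standard errors of 0.74 and 0.80. Those of junb and jund were 1.17 and 1.11, and those of jun and atf3 were 0.86 and 0.82. The values of fosl1 and fosl2 were 0.51 and 0.31, with standard errors of 0.64 and 0.41 and edgeR adjusted p of 0.65 and 0.67. Over the 10 factors the standard errors had a median of 0.64, against 0.38 for the better counted genes.

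The direction depended on H1H2Mo 1. Without that library, 7 of the 10 factors had a negative log2 fold change, down to -1.11 for jund, and the median was -0.61. fos and atf3 were then at 0.00 and 0.02 and ier2 at 0.36. None of the 10 was then called by edgeR, where 20.4% of the genes were. Without H1H2Mo 2, 7 factors were called higher, where 9.5% of the genes were: fos, fosb, jun, junb, jund, egr1 and ier2, with log2 fold changes from 1.64 for jun to 2.42 for fos. Without CoMo 1 the median was 0.60, fosl1 was at -0.06, and no factor was called by edgeR, where 3.03% of the genes were. Without CoMo 2 the median was 1.84, and again none was called, where 5.09% of the genes were. In these fits the single library left in a condition is assumed to vary like the other condition. By pairs of libraries, H1H2Mo 1 was above CoMo 1 for all 10 factors (median log2 difference 2.62) and above CoMo 2 for all 10 (1.27). H1H2Mo 2 was below CoMo 2 for all 10 (-1.16) and above CoMo 1 for 7 of 10 (0.28). With all libraries, the log2 fold change was smaller than the log2 ratio between the H1H2Mo replicates for all 10 factors. It was smaller than that between the CoMo replicates for 7 and larger for 3, fos, fosb and ier2.

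**Figure D3:**
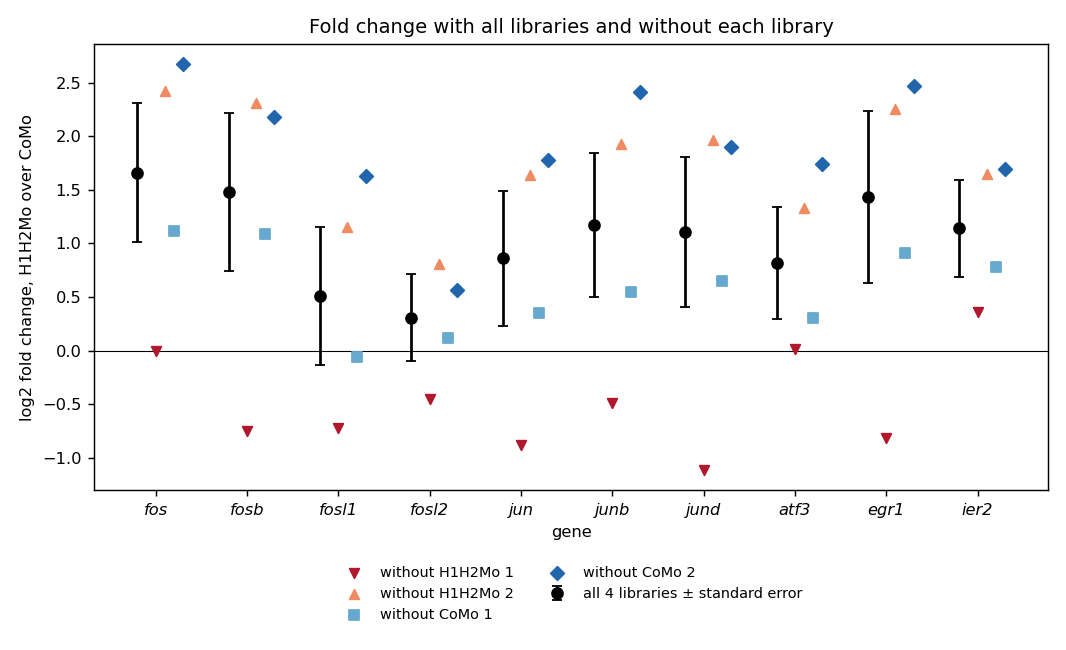
Log2 fold change of H1H2Mo over CoMo (y axis) for each factor (x axis), with all 4 libraries (black, bars are standard errors) and without each library in turn (coloured markers). Without H1H2Mo 1 the values lie between -1.11 and 0.36, while with all libraries they lie between 0.31 and 1.66.

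Other immediate early genes were taken as a list of 34 symbols, such as dusp1, klf4, nr4a1 and zfp36, which name 35 identifiers (socs3 has 2). Of the 35, 2 were called higher and 3 lower in H1H2Mo, and 30 were not called, where 5.83% of all genes were called higher and 10.7% lower. Listed genes carry a symbol only where the study's comparisons named them, which favours genes with a small p. The shares of all genes are thus no like baseline for this list or those below. nr4a1, an orphan nuclear receptor, rose to 125 and 38.4 CPM in H1H2Mo, against 16.02 and 30.3 CPM in CoMo (log2 fold change 1.81, edgeR adjusted p = 0.026). Like the 10 factors it was highest in H1H2Mo 1, but both H1H2Mo libraries lay above both CoMo libraries. sik1, a salt-inducible kinase, rose to 18.01 and 17.4 CPM, against 6.52 and 6.74 CPM in CoMo (1.42, edgeR adjusted p = 0.022), with replicates nearly level.

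The 3 genes called lower were ereg, rgs2 and zfp36l1. ereg, a ligand of the EGF receptor, fell to 15.3 and 11.99 CPM in H1H2Mo, against 117 and 157 CPM in CoMo (log2 fold change -3.32, edgeR adjusted p = 9.4e-05). rgs2, which dampens signals of G protein-coupled receptors, fell to 0.684 and 0.279 CPM, against 7.98 and 5.58 CPM in CoMo (-3.75, edgeR adjusted p = 0.0015). zfp36l1, an mRNA decay factor, fell to 15.1 and 29.8 CPM, against 52.0 and 54.1 CPM in CoMo (-1.24, edgeR adjusted p = 0.039). With each library left out in turn, ereg was called in 4 of the 4 fits, rgs2 in 3, sik1 in 2 and nr4a1 and zfp36l1 in 1, and none of the 5 changed sign. In these fits the log2 fold change ran from 0.74 to 2.43 for nr4a1 and from 1.4 to 1.45 for sik1. It ran from -3.5 to -3.09 for ereg, from -4.57 to -3.29 for rgs2 and from -1.81 to -0.82 for zfp36l1.

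In these other immediate early genes, listed with earlier results of these data known, the pattern between replicates was present in part and weaker. Among the 34 better counted identifiers, H1H2Mo 1 was the highest library for 21, and it was followed by CoMo 2 for 14, where 24.8% and 7.87% of all such genes showed this. The median log2 ratio was 1.07 for H1H2Mo 1 over H1H2Mo 2, against -0.07 for all better counted genes. For CoMo 2 over CoMo 1 it was 0.36, against 0.04. At least 2-fold apart were 18 of the 34 between the H1H2Mo libraries and 6 between the CoMo libraries. Both ratios reached 2-fold for ier3, trib1 and 1 of the socs3 identifiers. Not all shared the pattern: zfp36l1, btg1, rnd3 and ptgs2, singled out after their values were seen, were lower in H1H2Mo 1 than in H1H2Mo 2. Their log2 ratios were -0.98, -0.62, -0.18 and -0.16.

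**Figure D4:**
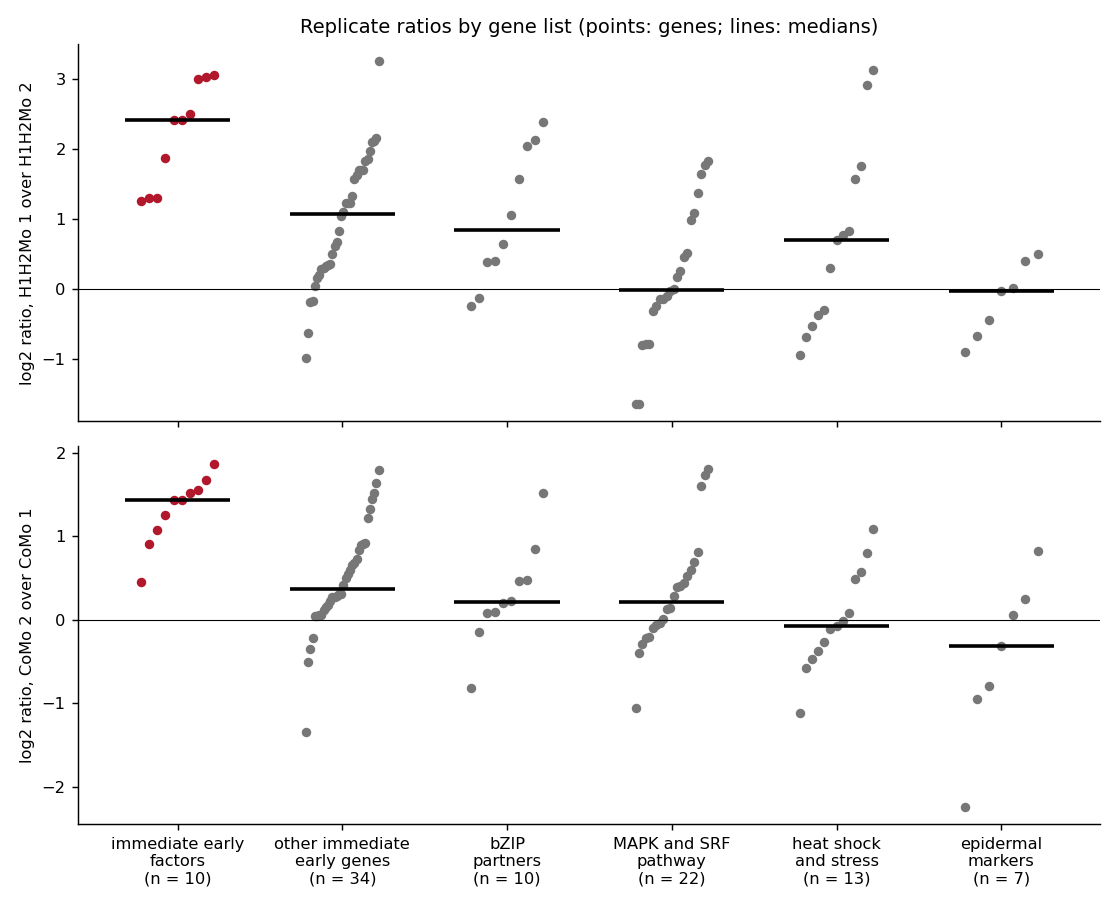
Log2 ratio of H1H2Mo 1 over H1H2Mo 2 (upper panel, y axis) and of CoMo 2 over CoMo 1 (lower panel, y axis) for the 10 factors (red) and for the genes of 5 other lists that averaged 50 counts or more (grey); points are genes and lines are medians. The medians of the 10 factors are 2.42 and 1.43, and those of the epidermal markers are -0.02 and -0.31.

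Among 13 other leucine zipper factors, 1 was called higher and 2 lower, where 5.83% of all genes were called higher and 10.7% lower. ddit3, a factor of the unfolded protein response, rose to 39.4 and 18.8 CPM in H1H2Mo, against 10.4 and 9.40 CPM in CoMo (log2 fold change 1.56, edgeR adjusted p = 0.020). atf6, a sensor of the same response, fell to 27.6 and 32.7 CPM, against 72.9 and 84.7 CPM in CoMo (-1.39, edgeR adjusted p = 0.011), and mafk fell to 0.973 and 0.725 CPM, against 4.57 and 2.55 CPM in CoMo (-2.04, edgeR adjusted p = 0.046). With each library left out in turn, atf6 was called in 2 of the 4 fits, ddit3 in 1 and mafk in 0. Among the 10 better counted ones, H1H2Mo 1 was highest for 7 (24.8% of such genes). CoMo 2 was then second for 3, cebpa, cebpb and jund.2 (7.87% of such genes). H1H2Mo 1 was at least 2-fold above H1H2Mo 2 for 5 of the 10, and CoMo 2 above CoMo 1 for 1. The paralog of jund, listed as jund.2, had 45.1 and 15.1 CPM in H1H2Mo, against 19.6 and 22.5 CPM in CoMo, so that the CoMo libraries were closer than for jund. Reads that map to several places are kept out of the gene counts, so reads common to these paralogs count for neither.

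The 25 listed genes of the MAP kinase and SRF pathway, a receptor, kinases, phosphatases and factors, differed in both directions between replicates. In the 22 better counted ones the median log2 ratio was -0.01 for H1H2Mo 1 over H1H2Mo 2 and 0.21 for CoMo 2 over CoMo 1. Both ratios reached 2-fold for 3 of the 22, where they did for 1.35% of such genes. Of the 25, 2 were called higher (5.83% of all genes were), 5 were called lower (10.7% of all genes were), and 18 were not called. srf itself had 68.8 and 32.2 CPM in H1H2Mo, against 38.5 and 31.6 CPM in CoMo, and was not called (log2 fold change 0.53, edgeR adjusted p = 0.39). The SRF coactivator mkl2 fell to 0.973 and 1.73 CPM in H1H2Mo, against 9.02 and 15.9 CPM in CoMo (log2 fold change -3.22, edgeR adjusted p = 0.0012). The other listed coactivator, mkl1, was more abundant and was not called (log2 fold change -0.27, edgeR adjusted p = 0.64). It had 103.1 and 104.4 CPM in H1H2Mo, against 102.5 and 147.0 CPM in CoMo. The kinase mapk13 fell to 0.865 and 0.223 CPM, against 13.1 and 6.24 CPM in CoMo (-4.07, edgeR adjusted p = 0.0014). The phosphatase dusp9 had 1 read in each H1H2Mo library, against 52 and 68 reads in CoMo, and was called lower (edgeR adjusted p = 0.0026). The receptor gene egfr and the phosphatase dusp4 were also called lower, closer to the threshold (log2 fold changes -1.06 and -1.16, edgeR adjusted p = 0.037 and 0.039). With 1 library left out at a time, the log2 fold change ran from -1.18 to -0.94 for egfr and from -1.6 to -0.81 for dusp4. In the other direction, the kinase map2k5 rose to 64.7 and 80.0 CPM in H1H2Mo, against 24.7 and 24.0 CPM in CoMo (1.57, edgeR adjusted p = 0.0053), and the phosphatase dusp16 rose to 20.1 and 5.58 CPM, against 1.10 and 4.01 CPM in CoMo (2.29, edgeR adjusted p = 0.033). With each library left out in turn, mkl2, mapk13 and dusp9 were each called in 3 of the 4 fits, map2k5 in 2 and dusp16 in 1. The kinase map3k8 and the phosphatase dusp8 were among 4 of the 22 that were highest in H1H2Mo 1 and second in CoMo 2 (7.87% of such genes were), with 25.0 and 9.65 CPM in H1H2Mo, against 3.23 and 9.95 CPM in CoMo for map3k8, and 44.5 and 12.9 CPM, against 6.21 and 20.8 CPM, for dusp8. Both were singled out after their values were seen.

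To find the genes whose levels were most like those of the 10 factors, the log2 CPM of each gene was centred on its own mean over the 4 libraries. The factors together averaged 1.5 in H1H2Mo 1 and -0.72 in H1H2Mo 2, against -1.05 in CoMo 1 and 0.27 in CoMo 2. Among 5443 other better counted genes with a symbol, the smallest root mean square difference from these values was that of hes7.2, a hairy/enhancer of split factor, at 0.07. LOC101734746, tprn, txnip and ankrd37 followed at 0.11 each. txnip, which binds thioredoxin, had 297 and 70.6 CPM in H1H2Mo, against 52.7 and 154 CPM in CoMo. This is a likeness over 4 libraries only.

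The tissue label was checked with markers chosen by symbol. The 8 epidermal markers, such as krt12, krt19, tp63 and cdh1, summed to 1539 and 1346 CPM in H1H2Mo, against 3556 and 3448 CPM in CoMo. Of this sum, cdh1, which was not called, made up 1087 and 766 CPM in H1H2Mo, against 1505 and 1788 CPM in CoMo. Of these 8, 4 were called lower, where 10.7% of all genes were, and 0 of the 7 better counted ones were highest in H1H2Mo 1, where 24.8% of such genes were. In bulk samples, fewer cells of a type and less RNA per cell cannot be told apart. The 4 neural markers tested summed to 18.7 and 24.1 CPM in H1H2Mo, against 136 and 38.0 CPM in CoMo, so they were highest where 7 of the factors were lowest, and 3 of the 4 were called lower, again beside 10.7% of all genes (ncam1, elavl3 and tubb3) and elavl2 was not called. The 8 markers of mesendoderm and muscle summed to 108 and 49.6 CPM in H1H2Mo, against 25.8 and 31.7 CPM in CoMo. Of these, vegt was called higher and myl1 lower, where 5.83% of all genes were called higher and 10.7% lower. cdh15 had 0 reads in H1H2Mo 2, and mix1 and mixer had 0 reads in CoMo 1. Of the 6 markers of epidermal cell types, tubb4b, foxa1 and itln1 were called lower, 3 of 6 beside 10.7% of all genes, and foxj1, foxi1 and otog were not called. The 6 summed to 3592 and 2015 CPM in H1H2Mo, against 4893 and 5898 CPM in CoMo. Of this sum, tubb4b made up 1107 and 1185 CPM in H1H2Mo, against 3198 and 4368 CPM in CoMo. The goblet cell marker otog made up 2268 and 639 CPM of the sum in H1H2Mo, against 874 and 1011 CPM in CoMo. It was the only 1 of the 6 that was highest in H1H2Mo 1 and second in CoMo 2 (7.87% of the better counted genes were). The other goblet cell marker, itln1, was second highest in CoMo 2 but highest in CoMo 1. The mesendoderm sum was highest in H1H2Mo 1, like the factors, but second in H1H2Mo 2, whereas the factors were second in CoMo 2. Of this sum, vegt made up 57.5 and 39.6 CPM in H1H2Mo, against 7.86 and 12.3 CPM in CoMo. Among the 4 better counted markers of this list, 2 were highest in H1H2Mo 1 and second in CoMo 2, like the factors (7.87% of such genes were). Of these, sox17a had 17.7 and 3.18 CPM in H1H2Mo, against 1.77 and 4.4 CPM in CoMo. The other, chrd, had 28.35 and 4.18 CPM in H1H2Mo, against 5.6 and 8.0 CPM in CoMo. Neither vegt nor myl1 had this order. The part of the mesendoderm sum in the spread of the factors was not tested.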

How the data were processed

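RNA-seq of 4 NF16 AC libraries was used (2 H1H2Mo, 2 CoMo). Per the study's methods and processing notes, the authors mapped read pairs to X. tropicalis v9.1 with STAR 2.7.1a and deposited raw counts per gene, unstranded and by strand. Reverse-strand counts were taken, which hold 97.49% or more of the stranded reads of a library made with a directional kit. Gene names came from the study's supplementary tables, which favour genes with a small p in its own comparisons. Of the 19372 genes tested, 6392 have such a name, so the shares of all genes are no like baseline for the lists.

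Genes detected (1 read) in at least 75% of the samples, that is 3 of 4, were tested with edgeR 4.0.16 in R 4.3.3 (TMM, quasi-likelihood test, Benjamini-Hochberg adjustment over all genes tested). Log2 CPM of single libraries carried a prior count of 2. DESeq2 1.42.0 and the other settings were alternatives. The 10 factors and all lists were chosen with earlier results of these data known. Named list genes are the 3 with the smallest p per direction among those called, and the 5 most like genes. Other list genes, such as egfr, dusp4, ddit4, srf and jund.2, were named to complete a count or for their role, after their values were seen. Depth was 17054150 to 47407319 read pairs on genes, and 2 libraries a condition give a single difference per condition as the measure of spread. Sequences and coordinates were not used here.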

Additional observations from a re-analysis of the deposited data

How the results depend on the processing

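Of the alternatives for the 10 factors, RLE and upper-quartile normalization, DESeq2, a minimum of 10 reads in 2 samples, unstranded counts, thinning to the smallest total and an adjusted p under 0.01 each called 0 factors, as in the report, and between 7.97% and 20.1% of all genes. Without a filter beyond 1 read in all, 6 factors were called, as were 17.3% of all genes. In this setting 6 other immediate early genes were called higher and 6 lower, where 6.83% of all genes were called higher and 10.4% lower. The cause of these changes was not tested. The replicate number as a block called 1 factor (fos) and 16.9% of all genes. Same-numbered samples tended weakly to deviate in opposite directions (correlation of -0.21 across genes). The labels do not say whether the numbers pair the samples, and this correlation cannot settle it. With crossed pairs (H1H2Mo 1 with CoMo 2, H1H2Mo 2 with CoMo 1), chosen after seeing the data, 3 factors and 25% of all genes were called. H1H2Mo 1 and CoMo 2 share a digit in their deposited names, and whether it marks a pair is not given. With these pairs 6 other immediate early genes were called higher and 6 lower, where 10.4% of all genes were called higher and 14.6% lower. DESeq2 called 5 other immediate early genes higher (7.95% of all genes) and unstranded counts 4 (5.62%), against 2 without these changes (5.83%). RLE and upper-quartile normalization called 3 each (6.38% and 6.73% of all genes). Leaving out 1 library at a time, the factors called ranged from 0 to 7, their median log2 fold change from -0.61 to 1.84, the other immediate early genes called higher from 0 to 13 and those called lower from 1 to 4. The largest number called higher came without H1H2Mo 2, where the share of all genes called higher was also the largest of these fits. The smallest number called lower came without CoMo 1, where the share of all genes called lower was also the smallest. Each fit leaves 1 library in a condition, so nothing is read from these counts. In these fits the log2 fold change of fosb ran from -0.75 to 2.31, with -0.72 to 1.63 for fosl1 and -0.45 to 0.81 for fosl2. It ran from -0.88 to 1.78 for jun, -0.49 to 2.41 for junb, -1.11 to 1.96 for jund and -0.81 to 2.47 for egr1. The median absolute log2 ratio between replicates stayed between 2.39 and 2.45 for H1H2Mo and between 1.30 and 1.44 for CoMo under every alternative tried for it. With 2 libraries per condition, a p that misses the threshold does not show that a factor did not differ.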

Other observations

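A list of 13 heat shock and stress genes moved in both directions between the conditions, with 3 called higher and 4 lower in H1H2Mo, where 5.83% of all genes were called higher and 10.7% lower. The chaperones hsp90aa1.2, hsp70 and dnaja4.1 fell in H1H2Mo, as did ddit4, an inhibitor of the mTOR kinase (log2 fold change -1.78, edgeR adjusted p = 0.0090). With 1 library left out at a time, the log2 fold change of ddit4 ran from -2.32 to -1.38. hsp70 had 10.2 and 13.1 CPM in H1H2Mo, against 72.1 and 48.0 CPM in CoMo (log2 fold change -2.37, edgeR adjusted p = 0.00084), dnaja4.1 had 34.0 and 41.7 CPM, against 179 and 129 CPM (-2.03, edgeR adjusted p = 0.0016), and hsp90aa1.2 had 0.180 and 0.335 CPM, against 9.81 and 4.46 CPM (-4.81, edgeR adjusted p = 0.00059). The DnaJ proteins dnajb9 and dnajb5 and the mitochondrial chaperone hspd1 rose. dnajb9 had 41.9 and 25.7 CPM in H1H2Mo, against 9.81 and 8.11 CPM in CoMo (1.92, edgeR adjusted p = 0.0043), hspd1 had 66.2 and 94.9 CPM, against 31.1 and 30.9 CPM (1.38, edgeR adjusted p = 0.013), and dnajb5 had 12.3 and 3.57 CPM, against 1.77 and 1.69 CPM (2.20, edgeR adjusted p = 0.025). With each library left out in turn, hsp90aa1.2 was called in 4 of the 4 fits, hsp70 and dnaja4.1 in 3, dnajb9 and hspd1 in 2 and dnajb5 in 1.

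Of the 13 heat shock and stress genes, all better counted, 8 were highest in H1H2Mo 1, where 24.8% of such genes were. For 3 of them, dnajb1, hspa1b and hspa1l, CoMo 2 was second (7.87% of such genes). The paralogs of hsp70 listed as hspa1b and hspa1l, singled out after their values were seen, were not called and, like the immediate early factors, were highest in H1H2Mo 1 and second highest in CoMo 2. hspa1b had 26.2 and 3.40 CPM in H1H2Mo, against 8.53 and 14.9 CPM in CoMo, and hspa1l had 7.89 and 0.837 CPM, against 2.50 and 5.42 CPM. Their lowest library was H1H2Mo 2, as for fosb, fosl2 and jund, while the other 7 factors were lowest in CoMo 1. Reads common to hsp70 paralogs are not in these counts.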
